A study of Oryza sativa with 6 samples.

Results

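The genes described here are 10 WRKY transcription factors of rice, Oryza sativa, that are known for roles in defence and hormone responses: WRKY13, WRKY24, WRKY45, WRKY53, WRKY62, WRKY70, WRKY71, WRKY72, WRKY76 and WRKY78. They were chosen by locus ID, and every array probe whose name begins with one of the 10 IDs was taken. This gave 24 probes for the 10 genes, out of 29695 loci that the array names. Transcript levels were measured on 1-colour microarrays in cells of the nucellar projection, a maternal strand of the young seed beside the vascular bundle, at 3 days after flowering. A laser was used to dissect the cells from seed sections, and their RNA was amplified in repeated rounds before labelling. The 6 arrays formed 3 groups of 2, all in the background of the cultivar ZH11 and grown under the same conditions. The groups were the wild type and A-OsMADS29 line 2 and line 14, whose genotype is labelled as OsMADS29 mutant. The labels do not say what the prefix stands for, which part of the gene is altered, or how many plants or seeds gave each sample. OsMADS29 is a MADS-box factor that the series title ties to the breakdown of the nucellus and nucellar projection.

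WRKY factors bind DNA at W-box elements through a domain that carries the sequence WRKY and a zinc finger. Many of them are switched on by pathogens, by chitin fragments or by the defence hormones salicylate and jasmonate, and some of them repress rather than activate defence genes. In cereal aleurone cells, the outer layer of the endosperm, several of these factors also hold back the response to gibberellin, the hormone that turns on starch breakdown.

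A level is given here as the log2 of a probe's signal over the 75th percentile of its array, so that 0 is the signal of the probe at that percentile and 1 unit is a 2-fold step. A probe counts as detected where its signal was well above the local background. Levels are compared between arrays for the same probe and never between probes. The share of probes detected ran from 72.8% to 79.8% over the arrays. There were no saturated spots, and precision is limited by having 2 arrays a group. Slide 1 held the wild type and line 2, and slide 2 held line 14, so the line 14 genotype and the slide cannot be told apart. OsMADS29 was detected on all 6 arrays, and its brightest probe did not pass the test (log2 difference of both lines from wild type -0.43, limma adjusted p = 0.884). All 3 markers of green pericarp tissue were detected on all 6 arrays, with a summed log2 level of 5.42 to 5.86 for wild-type arrays, 5.62 to 6.15 for line 2 and 5.64 to 6.48 for line 14. Of 4 endosperm markers, 2 were detected on all 6 arrays, and the summed log2 level was 3.30 to 3.79 for wild-type arrays, 2.72 to 4.16 for line 2 and 3.29 to 3.37 for line 14, while the storage protein gene GluA1 was detected on 1 array. That sum is carried by SBEIIb, and other endosperm markers differed within it. Wx stood at -1.34 and -1.30 in wild type, -1.09 and -6.99 in line 2, and -6.86 and -6.39 in line 14. GluA2 was higher on all 4 line arrays than in wild type (log2 difference 1.45, limma adjusted p = 0.512). The part of such cells in the results below was not tested. In such samples fewer cells of a type and less RNA per cell cannot be told apart.

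Most of the WRKY probes gave low signals in the nucellar projection, and probes 1 and 3 of WRKY78 were the exceptions, far above background on every array. A low signal can come from the probe as well as from the transcript, so the genes are not ranked by expression. Of the 24 probes, 10 were detected on all 6 arrays and belonged to WRKY13, WRKY24, WRKY45, WRKY53 and WRKY78. A further 4 probes, among them the single probes of WRKY70 and WRKY72, were detected on no array. On each array between 11 and 16 of the 24 probes and between 5 and 8 of the 10 genes were detected, with the most genes on wild-type replicate 2 and the fewest on line 14 replicate 2. Testing required detection on every array of some group, a condition met by 13 probes of 7 genes but not by WRKY62, WRKY70 and WRKY72. For a dim probe that entered through 1 group alone the filter favoured a higher level there, so counts over the 13 probes are descriptions. WRKY76 probe 3 entered through the wild type in this way, and WRKY45 probe 4 and WRKY71 probe 1 entered through line 2.

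**Figure D1:**
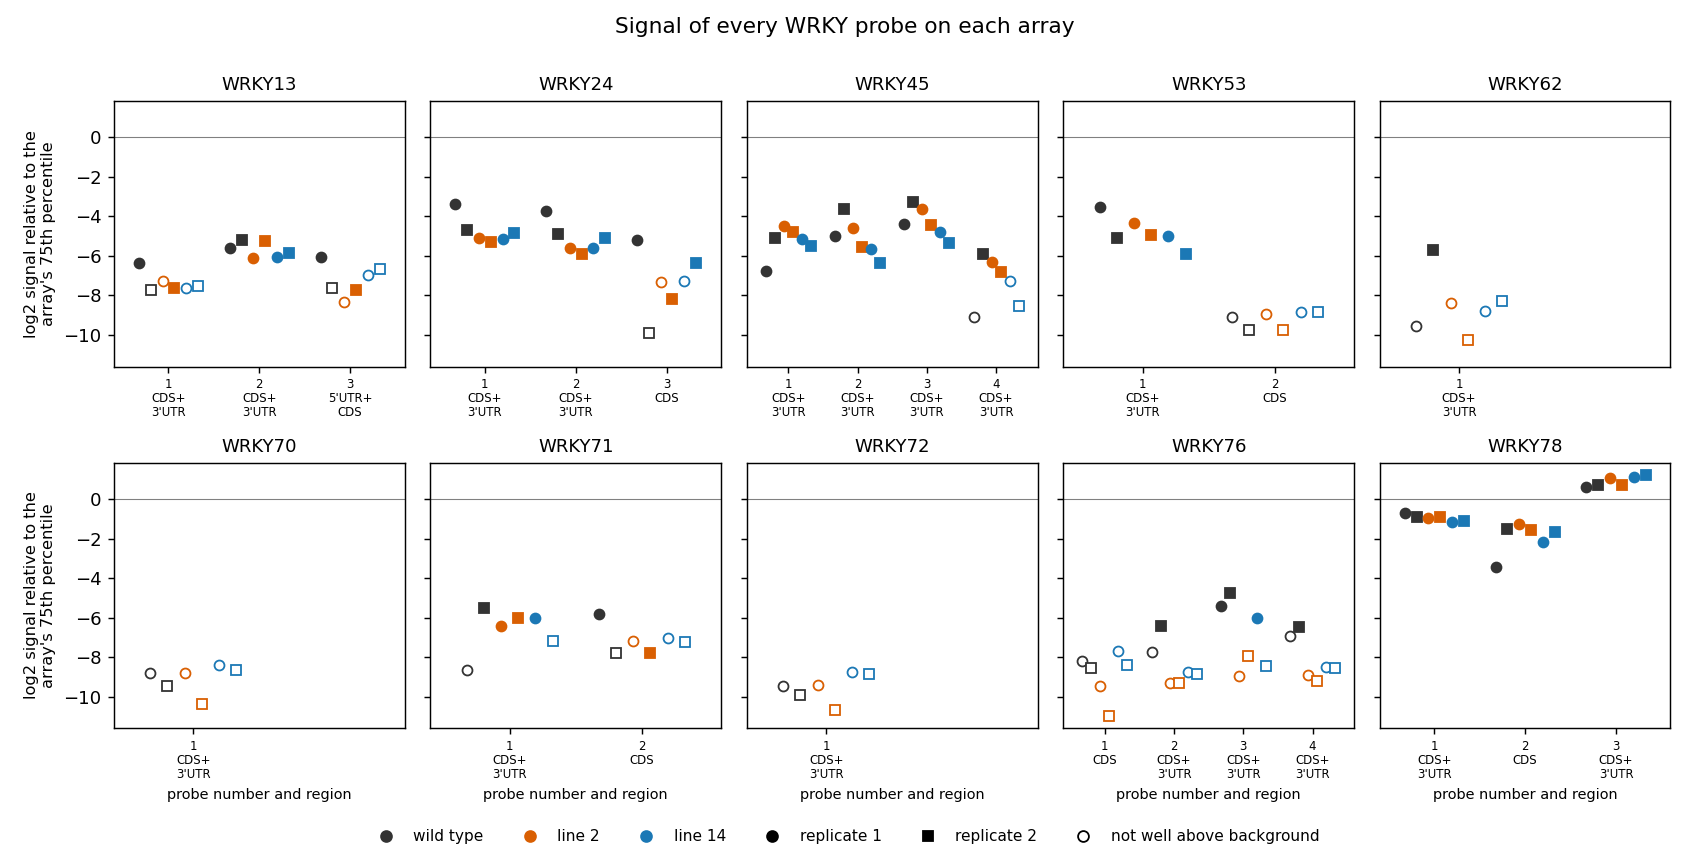
Level of each of the 24 WRKY probes on the 6 arrays, as log2 signal with the 75th percentile of the array at 0 (vertical axis), by probe number and region (horizontal axis). Filled symbols were well above background and open symbols were not. WRKY78 lies near or above -1 at 2 of its probes, while WRKY70 and WRKY72 show only open symbols.

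None of the 13 tested probes was called different in the lines. At a limma adjusted p under 0.05, 0 of 13 passed when both lines were compared with the wild type, where 0.139% of the 32420 probes tested passed (0.0709% higher and 0.0679% lower in the lines). For line 2 against wild type the count was 0, against 0.00617% of all probes, and for line 14 against wild type it was 0, against 0.0432% (0.0247% higher and 0.0185% lower). Between line 14 and line 2 it was also 0, and 0 of all probes passed. At an unadjusted limma p under 0.05, 2 of the 13 passed for both lines (WRKY24 probe 2 and WRKY76 probe 3), against 7.7% of all probes. The same 2 probes passed for line 2, against 6.43% of all probes, while 1 (WRKY45 probe 2) passed for line 14, against 6.9%, and 0 passed between the lines, against 3.43%. The median log2 difference of both lines from wild type was -0.43 over the 13 probes and 0.02 over all probes, and 8 of the 13 lay below 0. The median half-width of the 95% confidence intervals of all probes was 0.88 on the log2 scale.

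**Figure D2:**
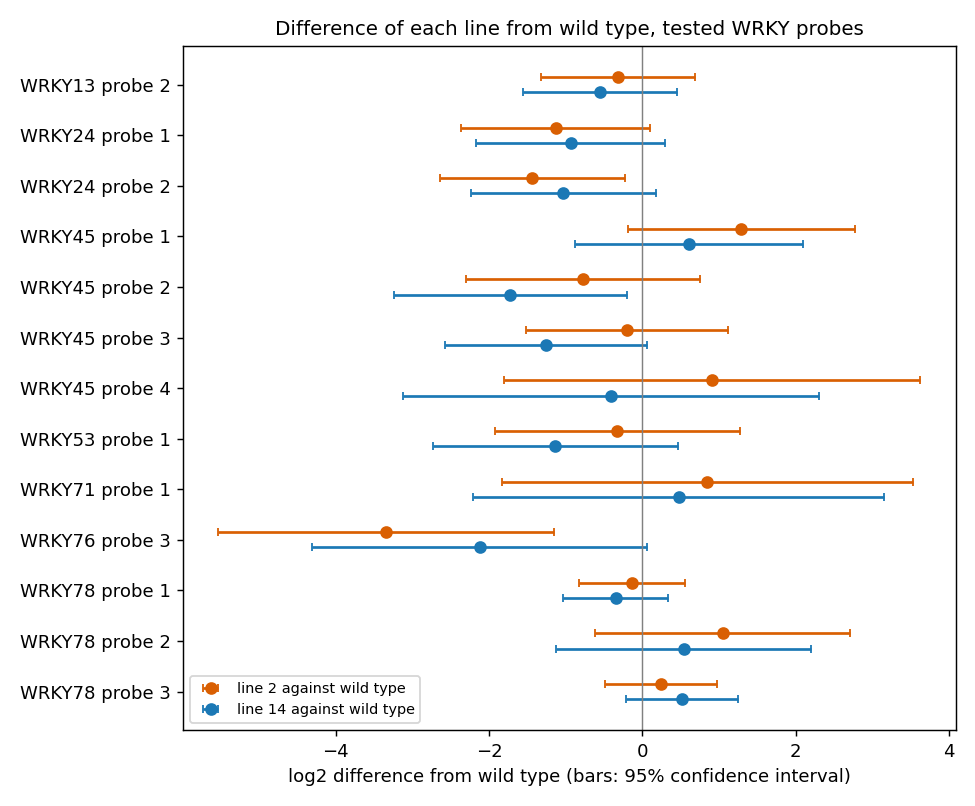
Log2 difference of line 2 and of line 14 from wild type (horizontal axis) with its 95% confidence interval for each of the 13 tested WRKY probes (vertical axis). Most intervals cross 0. The point of WRKY76 probe 3 for line 2 is drawn at the measured signals, which were not well above background. With line 2 counted no lower than the dimmest detected signal of each array, the ratio of the means was 7.69-fold. That ratio is no strict lower bound and leaves out the spread of the arrays.

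Of the repressors of defence WRKY76 was tested at 1 probe, which was not called, and WRKY62 was not tested. WRKY76 is a repressor of blast resistance and of phytoalexin genes, and WRKY62 represses defence genes as well; in the RefSeq gene order the 2 genes are direct neighbours on chromosome 9. Probe 3 of WRKY76 (locus Os09g0417600), at the end of the coding sequence and in the 3' UTR, stood at -5.43 and -4.76 in wild type, -8.97 and -7.92 in line 2, and -6.01 and -8.44 in line 14. Both wild-type arrays lay above all 4 line arrays, and the probe was detected on both wild-type arrays, on neither line 2 array and on line 14 replicate 1. It entered the test through the wild type alone, the group where it was high, so the filter favoured this direction.

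The mean level of WRKY76 probe 3 was -5.10 ± 0.47 for the wild type, -8.44 ± 0.74 for line 2 and -7.22 ± 1.72 for line 14 (mean ± SD, n = 2 arrays each). The log2 difference of both lines from wild type was -2.73 (SE 0.75, 95% confidence interval -4.63 to -0.84, limma adjusted p = 0.419). Because line 2 was not well above background, its signals were counted against a floor. Each line 2 array counted at its own signal or at the dimmest detected signal of that array, whichever was greater. By the group means the wild type then stood 7.69-fold higher than line 2 (limma adjusted p = 0.461 for the measured difference). The floor is not the highest undetected signal, since WRKY71 probe 2 was not detected at -7.17 on line 2 replicate 1. The ratio is therefore no strict lower bound, and it leaves out the spread of the arrays. For the measured log2 difference the 95% confidence interval was -5.53 to -1.15. Line 14 differed from wild type by -2.12 (limma adjusted p = 0.737) and was detected on 1 of its 2 arrays. Line 14 minus line 2 was 1.22 (95% confidence interval -0.97 to 3.41). The arrays of the lines overlapped, and both lines held signals that were not well above background. The difference of both lines above likewise includes the line 2 signals that were not well above background. With background correction by normexp followed by quantile normalization, the difference of both lines was -1.21 in place of -2.73.

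The other WRKY76 probes were too dim to be tested. Probe 2 stood at -7.72 and -6.40 in wild type, -9.31 and -9.33 in line 2, and -8.74 and -8.84 in line 14. Probe 4 stood at -6.93 and -6.45 in wild type, -8.90 and -9.22 in line 2, and -8.51 and -8.55 in line 14. At both probes the wild-type arrays were the highest, yet wild-type replicate 2 was the only array on which they were detected. Probe 1, in the coding sequence, was detected on no array. The single probe of WRKY62 (locus Os09g0417800) stood at -9.55 and -5.69 in wild type, -8.36 and -10.27 in line 2, and -8.79 and -8.27 in line 14. It too was detected on wild-type replicate 2 alone, and the wild-type arrays enclosed the levels of 3 of the 4 line arrays.

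Among the regulators of gibberellin responses, WRKY24 had 2 tested probes whose levels did not overlap between the wild type and the lines. Of all probes, 8.27% were likewise lower in the lines without overlap. WRKY71 had probes that disagreed. WRKY24 (locus Os01g0826400) is known to hold back gibberellin and abscisate responses in aleurone cells. Its probe 1 stood at -3.40 and -4.70 in wild type, -5.08 and -5.27 in line 2, and -5.14 and -4.82 in line 14. Its probe 2 stood at -3.73 and -4.90 in wild type, -5.61 and -5.89 in line 2, and -5.61 and -5.08 in line 14. At both probes wild-type replicate 1 was far above the rest, and wild-type replicate 2 was only just above the highest line array. Pearson's r between probes 1 and 2 over the 6 arrays was 0.98, so they are not 2 separate results.

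The log2 difference of both lines from wild type was -1.03 at WRKY24 probe 1 (SE 0.42, 95% confidence interval -2.10 to 0.04, limma adjusted p = 0.666). At probe 2 it was -1.23 (SE 0.42, 95% confidence interval -2.28 to -0.19, limma adjusted p = 0.551). Its size depended on which wild-type array was used, since without wild-type replicate 1 the differences were -0.38 and -0.65, and without wild-type replicate 2 they were -1.68 and -1.82. Line 14 and line 2 differed by 0.20 at probe 1 (95% confidence interval -1.04 to 1.43) and by 0.40 at probe 2 (95% confidence interval -0.80 to 1.61). Probe 3, in the coding sequence, was not tested and ranged from -9.91 on wild-type replicate 2, where it was not detected, to -5.21 on wild-type replicate 1. The wild-type arrays thus enclosed all 4 line arrays at this probe, unlike at probes 1 and 2.

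WRKY71 (locus Os02g0181300) is a repressor of gibberellin-induced alpha-amylase in aleurone cells. Its probe 1, at the end of the coding sequence and in the 3' UTR, stood at -8.65 and -5.50 in wild type, -6.43 and -6.02 in line 2, and -5.997 and -7.20 in line 14. It was the lowest on wild-type replicate 1 and the highest on wild-type replicate 2, so the line arrays lay between the wild-type arrays. Probe 1 was not detected on wild-type replicate 1 or on line 14 replicate 2, so its difference includes signals that were not well above background. Probe 2, in the coding sequence, stood at -5.82 and -7.78 in wild type, -7.17 and -7.78 in line 2, and -7.03 and -7.24 in line 14. It was the highest on wild-type replicate 1, the array on which probe 1 was the lowest. The difference of both lines at probe 1 was 0.66 (SE 0.92, limma adjusted p = 0.923), and it was -0.92 without wild-type replicate 1. Probe 2 was detected on wild-type replicate 1 and line 2 replicate 2 and was not tested.

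WRKY45, the salicylate-induced activator of blast resistance (locus Os05g0322900), had 4 probes with the same region label, which did not all order the arrays alike. Probe 2 stood at -4.98 and -3.62 in wild type, -4.61 and -5.55 in line 2, and -5.67 and -6.37 in line 14. Probe 3 stood at -4.37 and -3.26 in wild type, -3.62 and -4.42 in line 2, and -4.79 and -5.37 in line 14. At both of these probes wild-type replicate 2 was the highest array and the line 14 arrays were the lowest. For line 14 minus wild type the log2 difference was -1.72 at probe 2 (SE 0.61, 95% confidence interval -3.25 to -0.20, limma adjusted p = 0.666) and by -1.26 at probe 3 (SE 0.52, limma adjusted p = 0.741). Line 2 differed from wild type by -0.78 and -0.20 at these probes, and the difference between the lines was -0.95 (95% confidence interval -2.47 to 0.58) and -1.06 (95% confidence interval -2.38 to 0.26). Without wild-type replicate 2 the difference of both lines at probe 3 was -0.18 in place of -0.73, and at probe 2 it was -0.57 in place of -1.25.

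WRKY45 probe 1 stood at -6.76 and -5.08 in wild type, -4.47 and -4.78 in line 2, and -5.13 and -5.49 in line 14. Here the wild-type arrays held the lowest level and line 2 the highest, with a log2 difference of line 2 from wild type of 1.29 (SE 0.59, 95% confidence interval -0.19 to 2.78, limma adjusted p = 0.849). Probe 4 stood at -9.07 and -5.91 in wild type, -6.33 and -6.84 in line 2, and -7.27 and -8.53 in line 14. Its highest and lowest levels were both in wild type, and it was detected on wild-type replicate 2 and both line 2 arrays. Over the 6 arrays Pearson's r was 0.97 between probes 2 and 3 and 0.84 between probes 1 and 4. It was 0.73 between probes 3 and 4, 0.61 between probes 2 and 4, 0.31 between probes 1 and 3 and 0.12 between probes 1 and 2; these are descriptions, since the points share arrays. The probes of WRKY45 therefore do not give 1 direction for the gene, with differences of both lines from wild type of 0.95, -1.25, -0.73 and 0.25 at probes 1 to 4. Leaving out wild-type replicate 1 changed these to 0.12, -1.93, -1.29 and -1.33.

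WRKY13, WRKY53 and WRKY70 complete the factors of defence against microbes and herbivores. WRKY13 (locus Os01g0750100) favours salicylate over jasmonate responses. Its probe 2 stood at -5.59 and -5.18 in wild type, -6.13 and -5.27 in line 2, and -6.05 and -5.83 in line 14. The groups overlapped in part, the line 14 arrays lying below both wild-type arrays, and the log2 difference of both lines from wild type was -0.43 (SE 0.35, 95% confidence interval -1.30 to 0.43, limma adjusted p = 0.863). Probe 1 and probe 3 of WRKY13 were detected on wild-type replicate 1 and line 2 replicate 2 alone. Wild-type replicate 1 held the highest level at both, -6.36 at probe 1 and -6.04 at probe 3.

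WRKY53 (locus Os05g0343400) is induced by chitin fragments, acts below MAP kinases in defence, and is also known as a regulator of brassinosteroid signalling and grain size. Its probe 1 stood at -3.53 and -5.08 in wild type, -4.33 and -4.93 in line 2, and -4.98 and -5.90 in line 14. Wild-type replicate 1 was the highest array, and wild-type replicate 2 lay within the range of the lines. The log2 difference of both lines from wild type was -0.73 (SE 0.55, 95% confidence interval -2.12 to 0.66, limma adjusted p = 0.861), and it was 0.05 without wild-type replicate 1. Line 14 lay below line 2 by a log2 difference of -0.81 (95% confidence interval -2.41 to 0.79, limma adjusted p = 1). The coding-sequence probe of WRKY53 was detected on no array, with levels from -9.76 to -8.83.

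WRKY70 (locus Os05g0474800), a regulator of the balance of growth and defence against herbivores, was not well above background on any array, with levels from -10.35 to -8.39. WRKY72 (locus Os11g0490900), a regulator of abscisate and jasmonate responses, was likewise not well above background, with levels from -10.68 to -8.76. Each has a single probe, so transcripts that the probe misses were not measured. At both probes the lowest level was on line 2 replicate 2, the array with the lowest level of any detected probe, -9.76, where the other arrays reached -8.49 to -7.59.

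WRKY78 (locus Os07g0583700), known as a regulator of stem elongation and seed size, was detected at all 3 probes on all 6 arrays. Probe 3, at the end of the coding sequence and in the 3' UTR, stood at 0.61 and 0.73 in wild type, 1.09 and 0.72 in line 2, and 1.13 and 1.24 in line 14. The line 14 arrays lay above all others at this probe, with a log2 difference of line 14 from wild type of 0.52 (SE 0.29, 95% confidence interval -0.21 to 1.25, limma adjusted p = 0.855). Probe 1, with the same region label, stood at -0.69 and -0.92 in wild type, -0.96 and -0.92 in line 2, and -1.18 and -1.13 in line 14. There the line 14 arrays lay below all others, and the difference from wild type was -0.35 (SE 0.27, 95% confidence interval -1.03 to 0.34, limma adjusted p = 0.894). Both probes of the same end of WRKY78 thus ordered line 14 in opposite ways, by less than 2-fold each, and Pearson's r between them over the 6 arrays was -0.87.

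Probe 2 of WRKY78, in the coding sequence, stood at -3.42 and -1.51 in wild type, -1.26 and -1.57 in line 2, and -2.18 and -1.67 in line 14. Wild-type replicate 1 was the lowest array by a wide margin, and wild-type replicate 2 lay between the line 2 arrays. The log2 difference of both lines from wild type was 0.79 (SE 0.57, limma adjusted p = 0.851), and it was -0.16 without wild-type replicate 1. Over the 3 probes the difference of both lines from wild type was -0.24, 0.79 and 0.38.

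The wild-type arrays differed from each other more than the line arrays did, and the WRKY genes did not all differ in 1 direction. Of the 13 tested probes, the replicates were more than 2-fold apart at 9 of the wild type, at 1 of line 2 and at 3 of line 14. Over all tested probes the shares were 25.2%, 15.2% and 15.6%. Dim probes vary more, and the 10 tested probes outside WRKY78 had mean levels from -7.32 to -4.31. Among the 5865 probes in that range, 55.8% were more than 2-fold apart on the wild-type arrays, 34.8% on those of line 2 and 34.9% on those of line 14, where the 10 WRKY probes gave 8, 1 and 3. WRKY24 and WRKY53 were higher on wild-type replicate 1, while WRKY45, WRKY71 probe 1 and WRKY76 probe 3 were higher on wild-type replicate 2. The highest level of all 6 arrays was on a wild-type array at 10 of the 13 probes, 4 on replicate 1 and 6 on replicate 2. It was there at 39.6% of all probes. In the signal range of the WRKY probes outside WRKY78 it was there at 45.8% of probes, and at 9 of those 10 WRKY probes. Of these, WRKY76 probe 3 entered the test through the wild type alone. The lowest level of all 6 arrays was also on a wild-type array, replicate 1, at several tested probes. These were WRKY45 probes 1 and 4, WRKY71 probe 1, and WRKY78 probes 2 and 3. Probes of 1 gene share its transcript, so the counts of highest arrays are not independent and are descriptions.

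**Figure D3:**
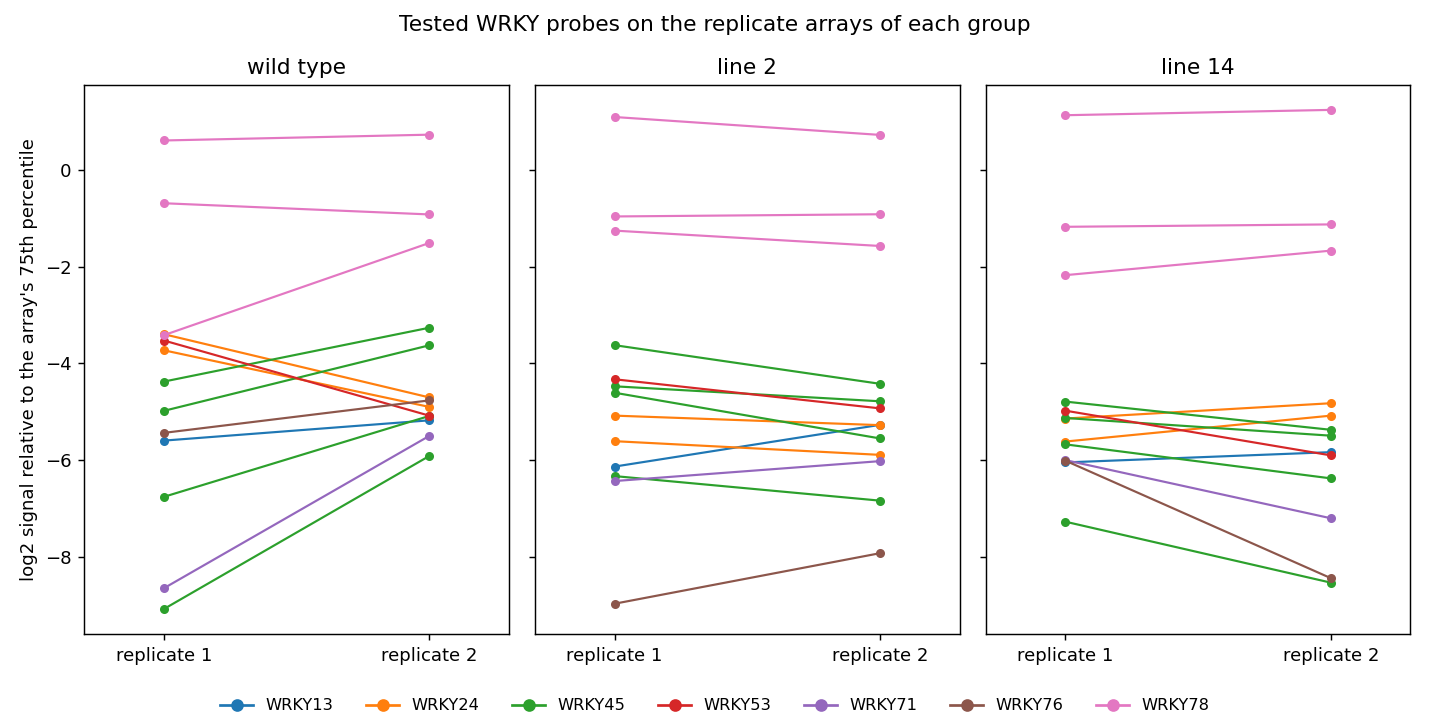
Level of the 13 tested WRKY probes on replicate 1 and replicate 2 of each group, as log2 signal with the 75th percentile of the array at 0, with a line joining the 2 arrays for each probe and a colour for each gene. In wild type 9 of the 13 lines span more than 2-fold and they cross, with WRKY24 and WRKY53 going down and WRKY45 and WRKY71 going up.

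Arrays of the compared groups did not overlap at 3 of the 13 probes when both lines were set against wild type, all 3 lower in the lines, namely both tested WRKY24 probes and WRKY76 probe 3. Of all probes 16.2% did not overlap, 8.27% lower and 7.96% higher in the lines. Line 2 did not overlap with wild type at 4 probes, 3 lower and 1 higher, against 32.4% of all probes. Line 14 did not overlap with wild type at 8 probes, 7 lower and 1 higher, against 34.7% of all probes, of which 17.2% were lower. The 7 lower probes belonged to 5 genes, WRKY13, WRKY24, WRKY45, WRKY76 and WRKY78. Line 14 did not overlap with line 2 at 8 probes, 7 lower and 1 higher, against 31.7% of all probes. Probes of 1 gene share its transcript, each line was compared with the same wild-type arrays, and line 14 had its own slide, so these counts are not independent. The 10 WRKY probes outside WRKY78 can be set beside all probes of their signal range. Lower without overlap were 3 of the 10 for both lines against 10.8% of that range, 3 for line 2 against 19.3%, 6 for line 14 against 20.6%, and 5 for line 14 below line 2 against 19.2%. Higher without overlap were 0 for both lines against 9.38%, 1 for line 2 (WRKY45 probe 1) against 18.3%, 0 for line 14 against 16.9%, and 0 for line 14 above line 2 against 15.4%. WRKY76 probe 3, which entered through the wild type alone, is among the lower probes in each comparison with wild type. WRKY45 probe 4, which entered through line 2 alone, is among those of line 14 below line 2. The filter favoured these directions, so the counts are descriptions.

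Other WRKY genes were examined through a list of 18 loci, of which 16 had a probe and 10 were tested. None was called in either direction when both lines were compared with wild type. The median log2 difference was -0.81 over the 10 genes at their brightest tested probe and -0.73 over the 7 tested genes of the main set, where all tested loci gave a median of 0.0044. WRKY8 and WRKY67 here, and WRKY76 in the main set, entered the test through the wild type alone. For them the filter favoured lower values in the lines, so the medians are descriptions. The largest differences were those of WRKY8, WRKY67 and WRKY7. WRKY8 stood at -5.59 and -7.55 in wild type, -9.41 and -10.89 in line 2, and -8.81 and -8.88 in line 14, and was detected on 2 arrays. WRKY67 stood at -5.995 and -4.51 in wild type, -8.19 and -7.56 in line 2, and -6.46 and -8.77 in line 14.

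WRKY7 stood at -4.62 and -3.30 in wild type, -6.38 and -6.30 in line 2, and -6.24 and -5.89 in line 14, and was detected on all 6 arrays. In each of these 3 genes both wild-type arrays lay above all line arrays. The 3 were named for their large differences in these same data, so this is a description. Of the 10 tested genes, 6 did not overlap between wild type and lines, with WRKY30 among them higher in the lines. Of all probes 16.2% did not overlap. The log2 difference of both lines from wild type was -2.92 for WRKY8 (SE 0.69, limma adjusted p = 0.328), -2.49 for WRKY67 (SE 0.78, limma adjusted p = 0.492) and -2.24 for WRKY7 (SE 0.43, limma adjusted p = 0.215). WRKY8 and WRKY67 entered the test through the wild type alone, and their differences include signals that were not well above background. The ratios of group means below count such signals no lower than the dimmest detected signal of the array. They are no strict lower bounds and leave out the spread of the arrays. WRKY8 was detected on no line array. By this ratio it stood 5.24-fold higher in wild type than in line 2 and 2.02-fold higher than in line 14. Yet on line 14 replicate 1 WRKY67 was not detected at -6.46, above the wild-type mean of WRKY8, -6.57. WRKY67 was detected on 1 line 2 array and no line 14 array, and its ratio of wild type to line 14 was 3.41-fold.

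All 11 genes of a defence signalling list, with receptors of chitin, MAP kinases and salicylate regulators among them, were tested, and 0 were called in either direction. Their median log2 difference of both lines from wild type was 0.03. MPK3, a MAP kinase that acts on WRKY53, stood at -4.74 and -4.37 in wild type, -5.42 and -7.36 in line 2, and -6.19 and -5.39 in line 14. Its wild-type arrays lay above all line arrays (log2 difference -1.54, SE 0.61, limma adjusted p = 0.642). NH1, the rice counterpart of the salicylate regulator NPR1, stood at -7.85 on wild-type replicate 1 and between -4.02 and -2.17 on the other arrays (log2 difference 1.64, SE 1.59, limma adjusted p = 0.886). CEBiP, a chitin-binding receptor, had a log2 difference of -1.09 (SE 0.67, limma adjusted p = 0.811). NH1 was detected on 1 wild-type array and CEBiP on 1 line 14 array, so both differences include a signal that was not well above background.

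Of 7 genes of jasmonate synthesis and response, 6 were tested and 0 were called, with a median log2 difference of -0.11. The largest differences were 0.32 for the allene oxide synthase AOS1 (SE 0.30), -0.30 for the allene oxide cyclase AOC (SE 0.29) and -0.25 for the conjugating enzyme JAR1 (SE 0.39), with limma adjusted p of 0.884, 0.884 and 0.931. Of 11 genes of defence output, 8 were detected on no array at any probe, namely PR1a, the phytoalexin regulator DPF and the diterpenoid phytoalexin enzymes CPS2, CPS4, KSL7, KSL4, CYP99A3 and MAS1. The 3 tested genes were not called. RSOsPR10, a pathogenesis-related protein, stood at -4.94 and -6.70 in wild type, -3.30 and -3.07 in line 2, and -3.50 and -4.94 in line 14. Its line arrays lay at or above the higher wild-type array (log2 difference 2.12, SE 0.64, limma adjusted p = 0.476). PBZ1 and PR1b had log2 differences of 0.47 (SE 0.53) and -0.21 (SE 0.39). PR1b was detected on 1 array of each line and entered the test through the wild type alone.

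Of 8 partners in hormone responses 7 were tested and 0 were called, with a median log2 difference of 0.02. The gibberellin repressor SLR1 and the gibberellin-induced factor GAMYB, which stand beside WRKY71 and WRKY24 in the aleurone response, had levels near the 75th percentile and log2 differences of -0.08 and 0.02 from wild type. DLT, a brassinosteroid response factor, stood at -0.94 and -0.43 in wild type, -1.43 and -0.67 in line 2, and -2.42 and -2.04 in line 14. Line 14 was the lowest group for DLT (log2 difference from wild type -1.54, limma adjusted p = 0.445), and both lines together differed by -0.96 (SE 0.35, limma adjusted p = 0.602). The brassinosteroid receptor BRI1 had a log2 difference of 0.42 (SE 0.27, limma adjusted p = 0.82). The abscisate factor ABI5 had one of -0.09 (SE 0.54), in which the lines lay on opposite sides of the wild type. Line 2 differed from wild type by 1.22 (limma adjusted p = 0.875) and line 14 by -1.41 (limma adjusted p = 0.772), neither overlapping with it, and line 14 minus line 2 was -2.63 (unadjusted p = 0.00704, limma adjusted p = 1).

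**Figure D4:**
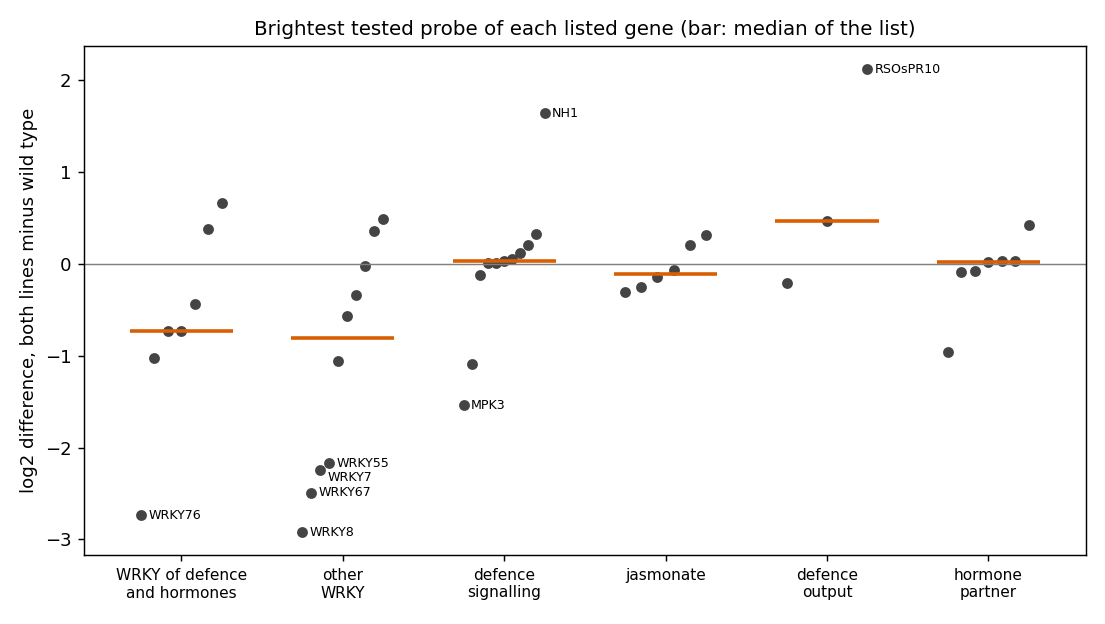
Log2 difference of both lines from wild type (vertical axis) at the brightest tested probe of each gene, by gene list (horizontal axis), with the median of each list as a bar. The WRKY lists have medians of -0.73 and -0.81 and the defence signalling list one of 0.03. The WRKY medians include WRKY76, WRKY8 and WRKY67, which entered the test through the wild type alone. No gene shown was called.

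Among the WRKY genes whose brightest probe was detected on all 6 arrays, WRKY45 had the widest range of group means, 1.26 at probe 3. Of 37 genes on the other lists, those with the most similar levels over the 6 arrays were ABI5 (Pearson's r = 0.72), DLT (r = 0.68) and WRKY67 (r = 0.57). These values describe 6 arrays and carry no test.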

How the data were processed

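Expression was measured on Agilent arrays with 1 colour (Cy3). Per the file headers, spots were quantified with Feature Extraction 10.7.3.1, and the signal column read here holds processed intensity values, linear and corrected for background. A second deposited table gives log2 values whose columns each have a median of 10.4. Set against the log2 spot signals its columns had correlations from 0.998 upward, so scale and direction are settled and genes were not centred; no label or header states the normalization behind it.

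Levels are log2 signals less the 75th percentile of their array, averaged for replicate spots, after removal of control spots, outlier spots (at most 0.183% per array) and 48 rice control probes. Of 42429 probes, 32420 had at least 0.5 of their spots well above background on every array of some group and were tested, each separately so that all probes of a WRKY locus could be read. The limma test (version 3.58.1, R 4.3.3) used a model of group means over the 6 arrays, with 3 residual degrees of freedom and 2.4 from the prior, and Benjamini-Hochberg adjustment over all probes at 0.05. It was tested on simulated data. The study's design names 2 independent biological samples per group.

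The WRKY genes, the gene lists and the tests were chosen with earlier results of these data known, and locus names come from general knowledge. From each list the text names the called genes or, with none called, the 3 with the largest difference of both lines; SLR1 and GAMYB were named in addition, after their values were seen. The signal range used for dim probes and the count of highest arrays were also chosen after seeing the data. Of the 10 locus IDs, 0 appear in the RefSeq gene table of assembly ASM3414082v1, which holds 4 of the genes by name (WRKY24, WRKY62, WRKY71 and WRKY76). No probe, promoter or protein sequence was used here. Figures were drawn with matplotlib 3.10.9. Alternatives changed how background, scaling and dim probes were handled, which value table and which probe stood for a locus, the variance model, the blocks for replicate number and slide, the groups fitted, the cutoff, and left out each array.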

Additional observations from a re-analysis of the deposited data

How the results depend on the processing

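The count of WRKY probes called stayed at 0 in each of the 4 comparisons under all alternatives run, 17 for both lines, 19 for line 2, 18 for line 14 and 18 between the lines. Not all of these are separate checks. In a comparison of 2 groups, leaving out either array of the remaining group gave the same result as fitting only the groups compared. The smallest limma adjusted p of a WRKY probe over the alternatives was 0.122 for both lines, 0.119 for line 2 and 0.176 for line 14, each without wild-type replicate 2, and 0.793 between the lines with no filter on dim probes. Of the log2 differences of both lines from wild type, 193 values kept their direction and 6 turned. The 193 include alternatives in the filter, the choice of probe, the variance model, the array weights and the replicate block. These left the log2 difference itself unchanged, so the count overstates how far directions were put to the test. Leaving out 1 array in turn gave a range of -1.33 to 1.83 at WRKY45 probe 4, -1.51 to 0.047 at WRKY53 probe 1, -0.92 to 2.23 at WRKY71 probe 1 and -0.16 to 1.75 at WRKY78 probe 2, with the turned sign in each case without wild-type replicate 1. At WRKY45 probe 4 the sign also turned after normexp (-0.058) and without line 14 replicate 1 (-0.063). The number of all probes called moved from 45 to between 0 and 255 for both lines, from 2 to between 0 and 108 for line 2 and from 14 to between 0 and 122 for line 14, the highest each time without wild-type replicate 2; the cause was not tested. For both lines the calls split into 23 higher and 22 lower, against 21 and 43 after normexp, 20 and 30 in the authors' value table and 216 and 39 without wild-type replicate 2. With the replicate number as a block, 0 WRKY probes were called (smallest adjusted p 0.509 for both lines). The deviations of same-numbered arrays correlated at 0.05 to 0.07 over 32357 probes. The labels do not say whether the numbers pair the samples, and these values cannot settle it. A slide block could be fitted for line 2 alone, where it left the values as they were, because slide 2 held no other group than line 14. Signal over background limits WRKY62, WRKY70, WRKY72 and most WRKY76 probes.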
